A study of Mus musculus with 4 samples.

Results

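The cells described here are CD4 T cells of tumor ascites, the fluid that collects in the peritoneal cavity, chosen on their own transcript counts. A cell was a member where it held at least 1 UMI (unique molecular identifier, 1 counted RNA molecule) of Cd3d, Cd3e or Cd3g and at least 1 of Cd4, none of Cd8a, Cd8b1, Foxp3 or Cd79a, fewer than 2 of Rora and Il18r1 together, and fewer than 30 of C1qa, C1qb and C1qc together per 10000 UMIs. The gate found 199 members among 6419 kept ascites cells, and the series held 13160 kept cells in all. The mice were B6 mice that carried BeCon tumors, and the design text and title name ovarian cancer as the setting. The treated arm received YKL-05-099, which inhibits the salt-inducible kinases (SIK), and the control arm received its vehicle; doses, schedule, sex and age were not given in the sources used here. Cells had been sorted as viable cells positive for CD45, the pan-leukocyte marker, and for MHC class I, so that the counts describe sorted immune cells and not the whole ascites.

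A hashtag, an antibody carrying a DNA barcode, marked the cells of each mouse before pooling, and the hashtag notes gave 4 vehicle and 4 treated mice. All ascites cells were run as 1 droplet library and the spleen and blood cells as another, so that both arms shared the library and its free RNA, while ascites and spleen did not. The ascites library held 13688 barcodes and 134034611 UMIs, and the spleen and blood library held 14792 barcodes and 92064806 UMIs. The 2 libraries shared 52 barcodes, of which 10 were kept cells in both, and 1 of these was a member. The median depth of the members was 3387.5 to 4566 UMIs per cell in the vehicle mice and 4017 to 4993 in the treated mice.

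Naive CD4 T cells circulate between blood and lymphoid organs and are held in a resting state by transcription factors such as TCF1 (Tcf7), LEF1, KLF2 and BACH2, with CCR7 as a homing receptor and IL7R as a survival receptor. Antigen contact lowers this programme and raises CD44, costimulatory receptors and cytokines. The salt-inducible kinases phosphorylate the CRTC coactivators and class IIa histone deacetylases, which keeps both in the cytoplasm; when the kinases are inhibited, CRTC proteins enter the nucleus and act with CREB, of which Crem and the phosphodiesterase genes are known targets.

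Of the 4 markers of the label, Cd4 and Cd3e were part of the gate and say nothing about it. Cd3e, the epsilon chain of the T cell receptor complex, had a UMI in 78.7% of the 75 vehicle members and in 72.6% of the 124 treated members, and Cd4 in all of them. Lef1 and Tcf7 were not used by the gate, and both were found in most members. Lef1 had a UMI in 82.7% of vehicle and 77.4% of treated members, and Tcf7 in 93.3% and 75.8%. Tcf7 had a UMI in 4.30% of vehicle B cells (cells with Cd79a), whose median depth was 4145.5 UMIs, against 4379 in the vehicle members.

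RNA of other cell types was present in the members. Apoe, a lipoprotein that macrophages make in quantity, had a UMI in 98.7% of vehicle members and in all 124 treated members, and Lyz2, a lysozyme of myeloid cells, in 93.3% and 96.0%. All 10 macrophage markers were detected in both arms, and their summed level per mouse ran from 2955 to 4073 CPM (UMIs scaled to a total of 1000000) in vehicle and from 2656 to 3552 in treated members, so that the arms overlapped. The 9 B cell markers summed to 240 to 404 CPM in vehicle and 217 to 381 in treated members, with Cd79a at 0 by the gate. The 12 dendritic cell markers, MHC class II genes among them, summed to 1702 to 8776 CPM in vehicle and 1963 to 5007 in treated members. Cd74, which is among them, reached 204 UMIs in a single vehicle member and 468 in a single treated member. Whether such members are doublets was not tested. Of 7 NK cell markers none was detected in vehicle members, and 4 were detected in treated members, at a sum of 0 to 248.6 CPM. The 7 markers of type 2 innate lymphoid cells, Rora among them, summed to 61.2 to 122 CPM in vehicle and 96.7 to 762 in treated members. Areg, Il5, Il13 and Klrg1 were at 0 in both arms, and Gata3 and Rora were detected in both. Il1rl1 was at 0 in vehicle members and was detected in treated members. The 6 markers of NKT or innate-like T cells summed to 49.0 to 120 CPM in vehicle, with Zbtb16 and Klrb1c at 0, and to 84.7 to 419 in treated members. The ranges of both sums overlapped between the arms. Their relation to the treatment differences of Ramp3, Tnfrsf18 and Tcf7 given further on was not tested. The 7 regulatory T cell markers summed to 120 to 282 CPM in vehicle and 252 to 889 in treated members, with Foxp3 at 0 by the gate. The difference in means lay in Tnfrsf18, which is among them and is given further on. Without it the mean sum was similar in both arms. The part that such RNA has in the results was not tested.

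Cells on either side of the gate for Rora and Il18r1 differed. The 170 members with none of these UMIs had 578 CPM of Tcf7 and 482 of Lef1. The 29 members with 1 UMI of Rora or Il18r1, just inside, had 540 CPM of Tcf7 and 533 CPM of Lef1, while the 21 cells with 2 such UMIs, just outside, had 294 and 285 CPM. Most members, 132 of 199, held a single Cd4 UMI. Another 393 ascites cells met every condition except that for Cd4, at 234 CPM of Tcf7, and are not members.

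The number of members differed widely between mice. The vehicle mice 1 to 4 gave 16, 8, 4 and 47 members, and the treated mice 1 to 4 gave 6, 15, 25 and 78. As a share of kept ascites cells this was 1.90%, 0.943%, 0.507% and 4.29% in the vehicle mice and 0.893%, 2.14%, 3.76% and 9.64% in the treated mice. The highest value of each arm was in the mouse numbered 4, and the arms overlapped. The mean share was 1.91% ± 1.69 (SD, n = 4) in vehicle and 4.11% ± 3.87 (SD, n = 4) in treated mice, a difference that did not exceed the spread between mice (two-sided exact permutation test, p = 0.4). The difference of 2.20 percentage points was 0.352 without the treated mouse 4 and 1.15 without both mice numbered 4. The counting interval of a single mouse was narrower than that spread: for the vehicle mouse 4 it was 3.17% to 5.67% (95% Clopper-Pearson, counting error only).

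Among the gated T cells, which also hold CD8 T cells, T cells with 2 or more Rora or Il18r1 UMIs and the 2 Foxp3 cells found in ascites, the members made up 23.7% ± 8.98 in vehicle and 24.7% ± 12.6 in treated mice (SD, n = 4 each; exact permutation p = 0.914). Per mouse this share was 30.2%, 17.8%, 14.3% and 32.4% in vehicle and 10.3%, 19.2%, 29.8% and 39.4% in treated mice, with the treated values on both sides of the vehicle values. The T cells with Rora or Il18r1, which include innate-like lymphocytes, were the class whose arms did not overlap: they made up 1.80% ± 0.522 of kept cells in vehicle and 5.29% ± 1.27 in treated mice (SD, n = 4 each). Their exact permutation p of 0.0286 is the smallest that 4 against 4 mice can give, and it was 0.171 after Benjamini-Hochberg adjustment over the 6 shares compared. The share of CD8 T cells was 3.39% in vehicle and 4.74% in treated mice (exact permutation p = 0.686, n = 4 each). Shares of a whole can move with any other class in it, and more T cells and fewer of other cells cannot be told apart here.

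**Figure D1:**
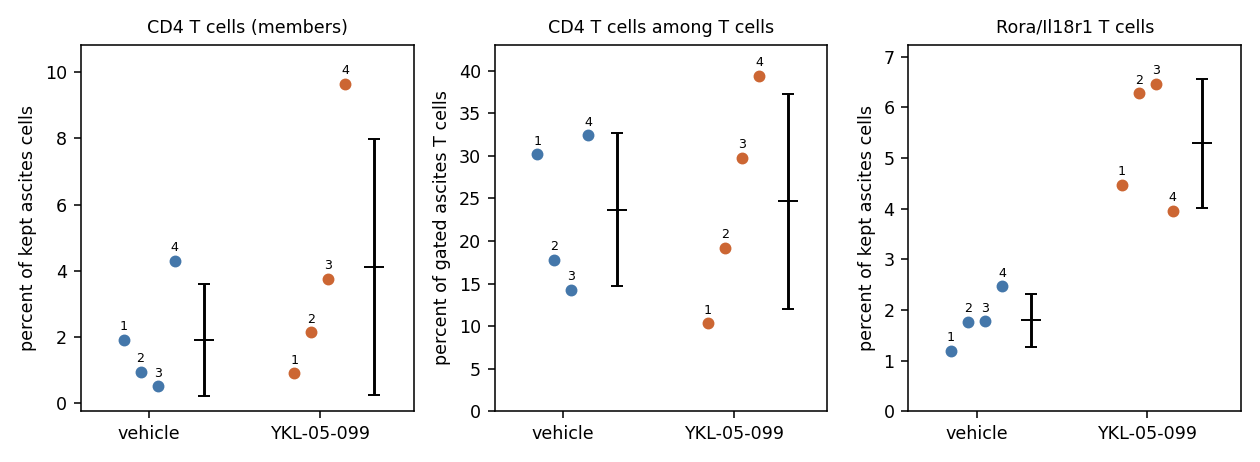
Shares of ascites cells by mouse. Each point is 1 mouse with its number, and the bars give mean ± SD (n = 4 mice per arm); the y axes are percent of kept ascites cells (left and right panels) and percent of gated ascites T cells (middle). The CD4 T cells overlap between arms in both denominators, while the 4 treated mice lie above the 4 vehicle mice for the T cells with Rora or Il18r1.

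For gene levels the UMIs of a mouse's members were summed and tested over mice with edgeR's quasi-likelihood test. The design had asked for at least 20 members per mouse, which only the vehicle mouse 4 and the treated mice 3 and 4 had, so that no such test could be fitted. Minimums of 20, 10 and 1 members were run and their calls seen; the minimum of 10, listed among the alternatives, is the nearest one that could be fitted and is reported. It compares the vehicle mice 1 and 4 with the treated mice 2, 3 and 4. Of 1843 genes tested, 1 rose in treated members (0.0543% of those tested) and 0 fell (0%), at an edgeR p below 0.05 after adjustment over all genes; 130 had an unadjusted p below 0.05. Leaving out 1 mouse moved the count to 11 without the vehicle mouse 4, 6 without the vehicle mouse 1, 3 without the treated mouse 4 and 2 without the treated mouse 3. Which gene is called depends on the minimum: with all 8 mice and no minimum, 956 genes could be tested, Txnip was the only call, and Ramp3, the call of the reported test, was removed by the filter on low counts.

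Ramp3, which encodes a receptor activity-modifying protein that pairs with the calcitonin receptor-like receptor and sets its ligand, was the gene that rose. The vehicle mice 1 to 4 had 24.5, 29.99, 0 and 0 CPM of it, from 2, 1, 0 and 0 UMIs. The treated mice 1 to 4 had 508, 91.6, 96.7 and 172 CPM, from 12, 7, 12 and 64 UMIs. The arms did not overlap, although the vehicle mouse 3 had so few UMIs that a count of 0 allows up to 182 CPM there; in the vehicle mouse 4, with more members, a count of 0 allows up to 13.3 CPM. The mean was 13.6 ± 15.9 CPM in vehicle and 217 ± 197 in treated mice (SD, n = 4 each). Over the 5 mice tested, the log2 fold change was 4.21 (SE 0.75), with an adjusted p of 0.0141 by edgeR.

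The Ramp3 result rested on few mice and few molecules. Pooled over mice, 95 UMIs in treated and 3 in vehicle members gave a ratio of levels of 19.0 (95% interval 6.30 to 93.7, counting error only). The signal was spread over cells: 48 of 124 treated members (38.7%) and 2 of 75 vehicle members (2.67%) had a Ramp3 UMI, no cell held more than 10, and the 5 highest cells held 34 of the 95. After each cell was thinned to 1500 UMIs the shares were 16.3% and 0%. Without the vehicle mouse 4 the log2 fold change was 2.50 and edgeR's adjusted p was 0.153, and with DESeq2's Wald test in place of edgeR it was 4.06 with an adjusted p of 0.260; over all alternatives in which it was tested the adjusted p ran from 2.36e-06 to 0.260. Without the treated mouse 4, and without both mice numbered 4, Ramp3 did not pass the filter on low counts.

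Ramp3 was also higher in treated cells of other ascites classes. Pooled over mice, the T cells with Rora or Il18r1 had 13.9 CPM in vehicle and 233 in treated mice, the CD8 T cells 2.80 and 27.2, the B cells 6.55 and 10.9, and the C1q-positive macrophages 7.47 and 18.9. A Ramp3 UMI was in 48.3% of treated cells with Rora or Il18r1 and in 13.3% of treated CD8 cells. In B cells, of a depth close to that of the members, it was in 3.42% of vehicle and 3.49% of treated cells, against 38.7% of treated members. The part of free RNA in these shares was not tested. In members of the same gate in spleen it was 11.5 CPM in vehicle and 25.6 in treated mice, pooled. A test of whether the treatment difference of Ramp3 in CD4 cells differed from that in CD8 cells gave 1.62 on the log2 scale (SE 1.82, adjusted p = 0.997 by edgeR), an interval too wide to place the 2 classes apart or together.

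The Ramp3 gene lies on chromosome 11. The 300 bases around its start, 250 before and 50 after, are shown because CREB binds the cAMP response element TGACGTCA and its shorter core TGACG, and this is the gene that the test called (RefSeq sequence, GRCm38.p6, plus strand, chr11:6658283-6658582). Capitals would mark a match, and there was none.
Ramp3: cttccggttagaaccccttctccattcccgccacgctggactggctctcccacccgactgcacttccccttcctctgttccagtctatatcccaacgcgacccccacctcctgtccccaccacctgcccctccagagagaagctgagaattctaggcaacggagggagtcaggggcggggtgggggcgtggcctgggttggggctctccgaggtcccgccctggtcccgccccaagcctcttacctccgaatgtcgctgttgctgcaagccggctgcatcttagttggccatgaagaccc
The window held neither TGACGTCA nor TGACG on either strand. Of 32851 promoter windows of this length, 588 (1.79%) held TGACGTCA and 6837 (20.8%) held TGACG, which lies inside it. No match says only that these letters are not in this window.

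The list named for the SIK, CRTC and CREB pathway, in which Ramp3 had been placed, had few members with enough counts. Of its 28 genes, 14 were tested and 1, Ramp3, rose (background 0.0543%), with a median log2 fold change of -0.00022 over the 14 against 0.00086 over all 1843 genes. As Ramp3 was the only call of the test, the count of 1 follows from its place in this list. That place is no result about the pathway, as the lists were chosen with earlier results of these data known. Crem, the cAMP response element modulator, had 24.5, 60.0, 0 and 88.5 CPM in vehicle mice 1 to 4 and 84.7, 118, 113 and 204 in treated mice 1 to 4. The lowest treated mouse lay just under the highest vehicle mouse, so that the arms overlapped, and the log2 fold change was 1.23 (SE 0.43, edgeR adjusted p = 0.451). Pooled over mice, Crem was 67.1 CPM in vehicle and 169 in treated members, and the CD8 T cells had 21.0 and 99.0. Pde3b, a phosphodiesterase that degrades cAMP, had 73.4 to 141 CPM in vehicle and 201 to 314 in treated mice, without overlap (log2 fold change 1.03, SE 0.35, edgeR adjusted p = 0.422; named after its values were seen). Of the kinases themselves, Sik1 was tested, with a log2 fold change of -0.57 (SE 0.38, edgeR adjusted p = 0.799), and Sik2 and Sik3 fell below the filter. Crtc3, a CRTC coactivator, had -0.998 (SE 0.36, edgeR adjusted p = 0.484), and Nr4a1, an early response nuclear receptor, had -0.04 (SE 0.42, adjusted p = 0.995).

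**Figure D2:**
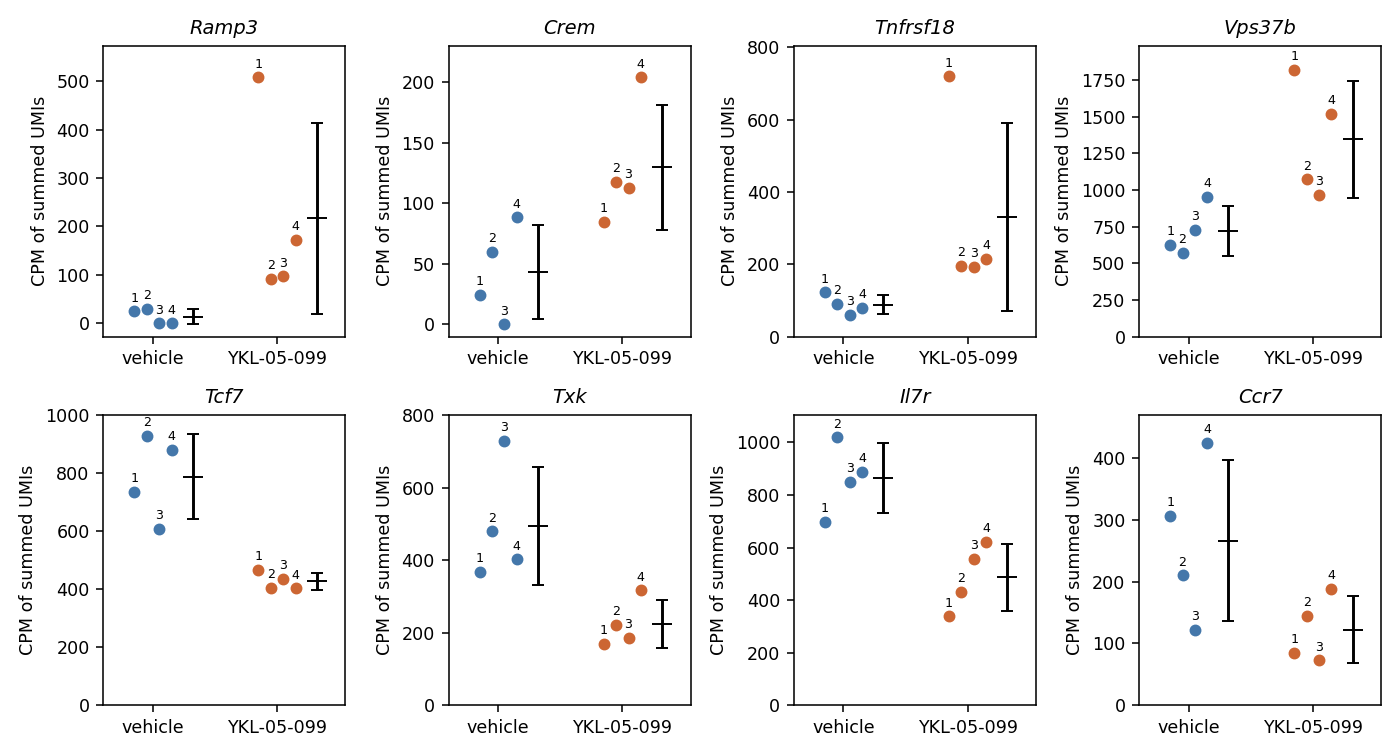
Levels of 8 genes in ascites CD4 T cells. Each point is 1 mouse with its number, in CPM over the summed members; the black bars give mean ± SD (n = 4 mice per arm), and the vehicle mouse 3 and the treated mouse 1 rest on 4 and 6 cells. Ramp3, Tnfrsf18, Vps37b, Tcf7, Txk and Il7r do not overlap between arms, while Crem and Ccr7 do; Ramp3 was the gene past the threshold.

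Genes of the naive and quiescent state lay lower in treated members without passing the test. Of 20 such genes, 18 were tested and 0 passed (background 0% for lower genes); 15 had a log2 fold change below 0, 8 of them at an unadjusted edgeR p below 0.05 (3.58% of all genes tested did so in that direction, and 3.47% in the other, where no gene of the list did), and the median was -0.39 against 0.00086 over all genes. These genes share cells and are not independent of each other. Under the alternatives 12 to 17 of the genes tested lay below 0, and up to 2 passed.

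Tcf7, which encodes TCF1, had 734, 930, 608 and 880 CPM in vehicle mice 1 to 4 and 466, 406, 435 and 403 in treated mice 1 to 4. The 4 treated mice lay close together and under all 4 vehicle mice. The mean was 788 ± 146 CPM in vehicle and 427 ± 29.4 in treated mice (SD, n = 4 each), and the log2 fold change over the 5 tested mice was -0.96 (SE 0.23, edgeR adjusted p = 0.137). The adjusted p ran from 0.00771 to 0.458 over the alternatives: it was 0.00771 with a stricter hashtag rule, 0.0354 without the vehicle mouse 1 and 0.0394 without the members of highest depth. After thinning to 1500 UMIs, Tcf7 had a UMI in 69.3% of 75 vehicle and 39.8% of 123 treated members, with 1 treated cell too shallow to be thinned.

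The interleukin 7 receptor Il7r and the kinase Txk also did not overlap between the arms. Il7r had 698, 1020, 851 and 889 CPM in vehicle and 339, 432, 556 and 623 in treated mice 1 to 4 (log2 fold change -0.53, SE 0.24, edgeR adjusted p = 0.629). Txk, a TEC-family kinase of T cell receptor signalling, had 367, 480, 730 and 403 CPM in vehicle and 169, 222, 185 and 317 in treated mice (log2 fold change -0.59, SE 0.28, adjusted p = 0.674). Of 1251 genes with a mean of at least 100 CPM over the 8 mice, a minimum set after values were seen, 36 (2.88%) were lower and 44 (3.52%) higher in treated mice without overlap. For a single gene the exact permutation p is then 0.0286, and 0.447 after adjustment over those genes, so none of them passes.

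Ccr7, the receptor that guides naive cells into lymph nodes, had 306, 210, 122 and 425 CPM in vehicle and 84.7, 144, 72.5 and 188 in treated mice, which overlapped (log2 fold change -1.35, SE 0.33, edgeR adjusted p = 0.137). It passed under 4 of the alternatives, the smallest adjusted p being 0.00235 without the vehicle mouse 1 and the largest 0.758. Lef1, a partner of TCF1, had 502, 540, 608 and 526 CPM in vehicle and 381, 445, 266 and 545 in treated mice (log2 fold change -0.24, SE 0.28, adjusted p = 0.919). Klf2, a transcription factor of resting T cells, had -0.37 (SE 0.22, adjusted p = 0.747), and Zfp36l2, an mRNA decay factor, -0.45 (SE 0.20, adjusted p = 0.629). Counted per cell after thinning, a member held 7.73 ± 0.927 of the naive genes in vehicle and 5.97 ± 0.946 in treated mice (SD of mouse means, n = 4 each). The mouse means ran from 6.5 to 8.75 in vehicle and from 5.0 to 7.18 in treated mice, and overlapped. Within the treated mouse 4, with 78 thinned cells, single cells held 0 to 12 of these genes.

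**Figure D3:**
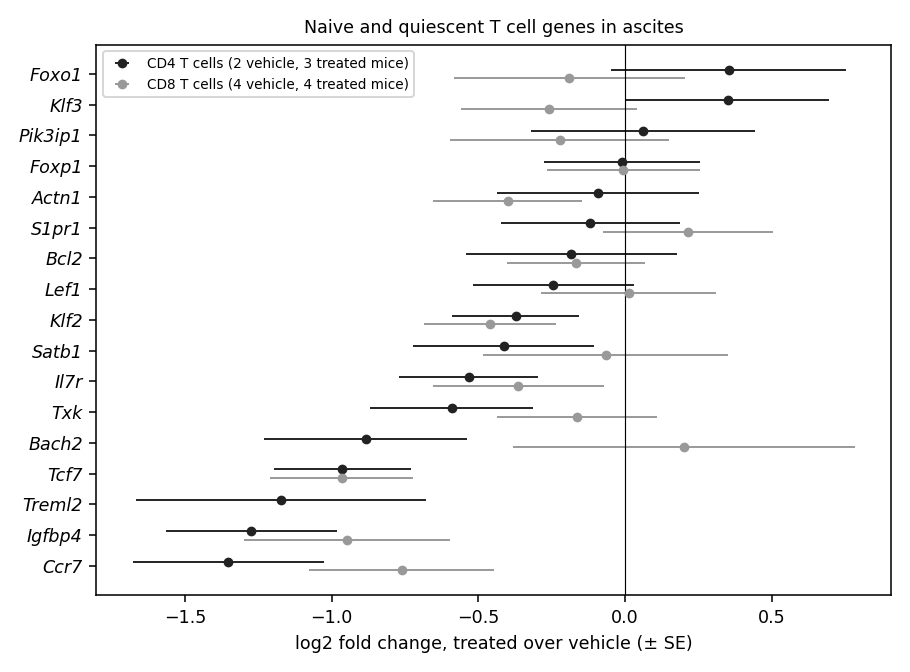
Treatment differences of the naive and quiescent T cell genes in ascites. Each row is a gene; points give the log2 fold change of treated over vehicle with lines of ± 1 SE, black for the CD4 T cells (2 vehicle and 3 treated mice) and grey for the CD8 T cells (4 and 4 mice). In both classes 15 of 18 tested genes lie below 0 and none passed the test; genes of the list not tested in CD4 T cells, and 1 further gene, are not drawn.

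Txnip, a glucose-sensing arrestin protein that quiescent cells express highly, had 2081, 2039, 1702 and 1225 CPM in vehicle and 1101, 851, 709 and 937 in treated mice, without overlap (log2 fold change -0.93, SE 0.21, edgeR adjusted p = 0.137). It was the gene that fell when all 8 mice were tested with no minimum of members. It is named here after its values were seen, as are the next genes. Tnfrsf18, the costimulatory receptor GITR, had 122, 90.0, 60.8 and 79.6 CPM in vehicle and 720, 196, 193 and 215 in treated mice, without overlap; its log2 fold change was 1.13 (SE 0.35, adjusted p = 0.363). Its highest value came from the treated mouse with 6 members. Vps37b, an endosomal sorting subunit, had 624, 570, 730 and 955 CPM in vehicle and 1820, 1073, 967 and 1517 in treated mice (log2 fold change 0.59, SE 0.23, adjusted p = 0.573).

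Activation genes gave no call in either direction (background 0.0543% for higher genes). Of 25 activated and memory genes 20 were tested, 13 lay above 0 and the median log2 fold change was 0.35. S100a6, a calcium-binding protein of memory cells, had 1.36 (SE 0.40, edgeR adjusted p = 0.342) and Cd44 had 1.20 (SE 0.65, adjusted p = 0.739). Cd44 had 61.2, 90.0, 304 and 31.0 CPM in vehicle and 84.7, 157, 137 and 40.3 in treated mice 1 to 4, which overlapped. Its highest value was that of the vehicle mouse 3, which had 4 members and was not in the test. Costimulatory receptors had 7 of 16 genes tested with a median of 0.33, early response genes 18 of 25 with a median of -0.04, and T cell receptor genes 16 of 20 with a median of -0.01. Heat shock and folding chaperones had 14 of 17 tested genes above 0 at a median of 0.20. In type I interferon-induced genes 7 of 35 were tested, 6 lay above 0 and the median was 0.42. Pdcd1, Ifng and Fkbp5 did not have enough counts: Pdcd1, which encodes PD-1, had at most 1 UMI in any mouse, and Ifng had 0 to 60.8 CPM in vehicle and 8.05 to 118 in treated mice. Of the 21 lists with a tested gene, only the SIK, CRTC and CREB list had a call. Ramp3 was the only gene called, so this follows from where it was placed and is no result about the list.

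Tcf7 was also lower in the CD8 T cells of the treated mice, without passing the test. A separate test over all 8 mice, added to the design, put Tcf7 at -0.97 (SE 0.25, edgeR adjusted p = 0.151) in CD8 cells, with 397 to 834 CPM in vehicle and 216 to 392 in treated mice, which did not overlap. The naive list had 18 genes tested in CD8 cells, 0 passed and the median was -0.24, and 1 of 1850 genes fell (0.0541%; Map4k4, log2 fold change -1.31, SE 0.24, adjusted p = 0.0369). The test of the difference between the classes, with mouse as a block, called 0 of 2544 genes in either direction (0% and 0%) by edgeR, and 93 had an unadjusted p below 0.05. It called 7 genes without the treated mouse 4, 5 without the vehicle mouse 4 and 1 without any of the other 3 mice. For Tcf7 the difference between the classes was 0.07 (SE 0.27, adjusted p = 0.997), and for Crem -0.82 (SE 0.63, adjusted p = 0.997). The smallest p were those of Tmem30a, Olfr1369-ps1 and Cxcl10, each with an adjusted p of 0.890. A call of 0 does not show that the classes respond alike.

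**Figure D4:**
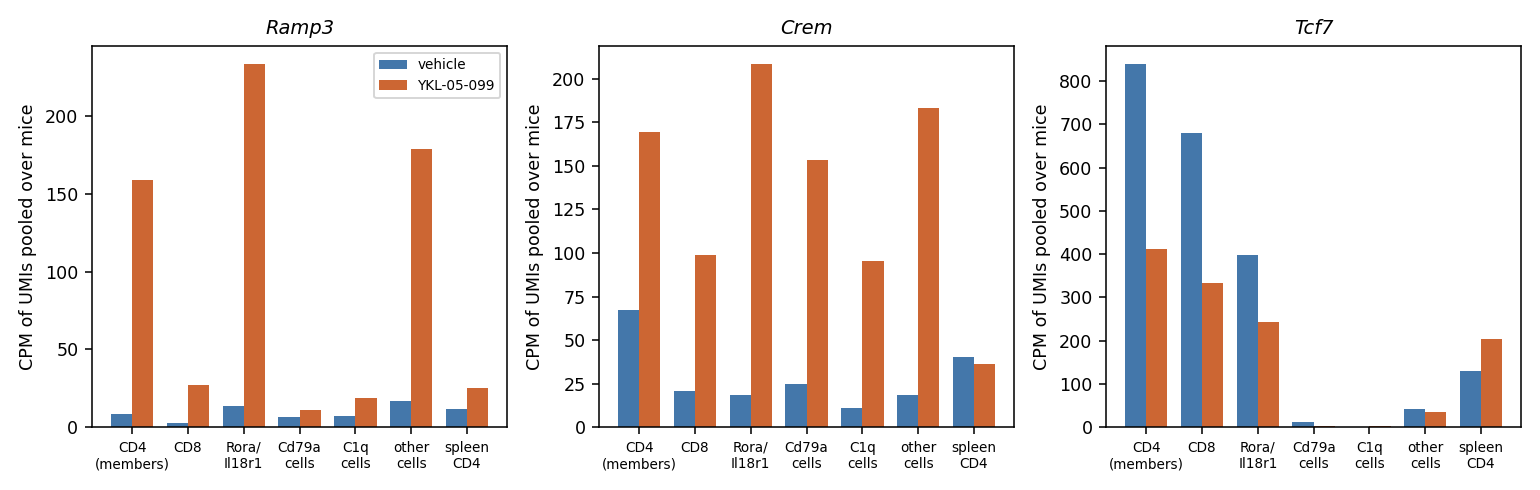
Pooled levels of Ramp3, Crem and Tcf7 by cell class and arm. Bars start at 0 and give CPM pooled over the mice of an arm, so that they carry no error; the classes are the members, CD8 T cells, T cells with Rora or Il18r1, Cd79a cells, C1q cells and other cells of ascites, and CD4 T cells of spleen by the same gate. Ramp3 reached 159 CPM in treated members and 233 in treated cells with Rora or Il18r1, and Tcf7 was lower in treated than in vehicle cells in all 3 T cell classes of ascites and not in spleen.

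The same gate found 110 CD4 T cells in spleen and 38 in blood. The spleen cells differed from the members in more than treatment. Ikzf2, which encodes Helios and marks many regulatory T cells, had 257 CPM in vehicle spleen cells, pooled, and 5.59 in vehicle members, although Foxp3 was at 0 in both by the gate. In spleen, 3 vehicle and 3 treated mice had at least 10 gated cells, and 1 of 1162 genes rose (0.0861%) and 2 fell (0.172%) with treatment. S100a4, a calcium-binding protein of motile and memory cells, rose from 185 to 292 CPM in vehicle to 540 to 759 in treated mice (log2 fold change 1.42, SE 0.24, edgeR adjusted p = 0.00221). The share of spleen cells with an S100a4 UMI was 35.0% in vehicle and 34.0% in treated mice, pooled, and 20.3% and 20% after thinning; the rise was in the summed level and not in these shares. Ctla2a, a cysteine protease inhibitor, fell by 2.76 on the log2 scale (SE 0.50, adjusted p = 0.00349), and Cirbp, a cold-inducible RNA-binding protein, fell by 2.29 (SE 0.51, adjusted p = 0.0361). Without the treated mouse 4, 12 genes were called in spleen, and without the vehicle mouse 2, 5. Ctla2a lost its call without the vehicle mouse 2 (adjusted p = 0.301), and Cirbp lost it without any of 4 mice, the largest adjusted p being 0.495 without the vehicle mouse 2. Ramp3 and Crem did not pass the spleen filter, and Tcf7 had 0.61 (SE 0.32, adjusted p = 0.634).

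The treatment difference of S100a4 in summed level differed between the tissues in the reported fit. In ascites its level was 673, 450, 0 and 265 CPM in vehicle and 550, 170, 185 and 255 in treated mice 1 to 4, which overlapped. The share of members with an S100a4 UMI was 36.0% in vehicle and 37.1% in treated mice, pooled, and 17.3% and 24.4% after thinning. These shares were not lower in treated members. The test of the difference between ascites and spleen, without a mouse block, gave -2.36 on the log2 scale (SE 0.43, edgeR adjusted p = 0.00823). S100a4 was the 1 gene called of 1983 (0.0504%, higher 0%). With mouse as a block 5 genes were called, S100a4 among them. In that fit the vehicle mouse 1 was the only vehicle mouse with both tissues. Without the treated mouse 4, 13 genes were called, without the vehicle mouse 3, 3, without the treated mouse 2, 2, and without the vehicle mouse 1, 0. Without the vehicle mouse 1, whose ascites level was the highest, the difference was -1.53 with an adjusted p of 0.207, and with a stricter hashtag rule it was -1.61 with 0.0714 and Tcf7 was called in its place; over the alternatives the adjusted p ran from 4.74e-06 to 0.207. Tcf7 had -1.54 (SE 0.38, adjusted p = 0.127) and Ramp3 3.09 (SE 1.66, adjusted p = 0.827) in this test.

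Members in vehicle ascites were set against vehicle spleen cells of the same gate. Here 384 of 1983 genes (19.4%) were higher and 404 (20.4%) lower in ascites, so that a call was common, and tissue and droplet library cannot be told apart. With mouse as a block, since ascites and spleen of 1 mouse number come from the same animal by the hashtag notes, 268 genes were called; 463 were called without the vehicle mouse 4 and 522 without the vehicle mouse 1. Of the vehicle mice in this fit, only mouse 1 had both tissues, so that the calls with the block rest on that pair. The SE and adjusted p of single genes given for this contrast are from the fit without the block. That fit takes samples of ascites and spleen from 1 animal as independent. Free RNA moved with the contrast of ascites and spleen. Macrophage markers summed to 2955 to 4073 CPM in members and 229 to 268 in spleen cells, B cell markers to 240 to 404 against 2079 to 2396, and neutrophil markers to 0 to 35.4 against 471 to 537. Of the genes with the smallest p, Apoe (5.33), Cxcl2 (6.25), Wfdc17 (6.64), Socs3 (3.43) and Zfp36 (2.69) were higher in ascites on the log2 scale, and Igkc (-3.34), Cd52 (-2.03), AY036118 (-1.76), Rps18 (-1.17) and Rpl32 (-1.10) lower.

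Naive genes were higher in ascites than in spleen cells of this gate. Of 20 tested, 14 were called higher (background 19.4%) and 0 lower (20.4%), at a median log2 difference of 1.43 against 0.01 over all genes; with the mouse block 8 of 20 were called, where 268 of all 1983 genes were called in either direction, and without the vehicle mouse 4, 13 of 20, where 463 of 2472 were. Tcf7 was 608 to 930 CPM in vehicle members and 105 to 160 CPM in vehicle spleen cells, a log2 difference of 2.50 (SE 0.27, edgeR adjusted p = 3.98e-09). Pooled Tcf7 in blood cells of the gate was 482 CPM in vehicle mice, and in ascites C1q cells it was 1.20 CPM. Lef1 had a log2 difference of 2.03 (SE 0.31, adjusted p = 2.37e-06), Ccr7 2.79 (SE 0.43, adjusted p = 7.43e-06), and Bach2, a repressor that keeps T cells resting, 4.10 (SE 0.55, adjusted p = 2.70e-07). Il7r had 0.13 (SE 0.23, adjusted p = 0.687). Over the 11 alternatives, the mouse block among them, the log2 difference was 2.29 to 2.72 for Tcf7 and 1.93 to 2.26 for Lef1. It was 2.42 to 3.20 for Ccr7 and -0.14 to 0.22 for Il7r.

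Other lists went both ways in this contrast, and their counts stand against 19.4% of all tested genes called higher and 20.4% lower, 268 of 1983 in either direction with the block, and 463 of 2472 without the vehicle mouse 4. A share near these is no result about a list. Lists also share genes called higher, so that their counts are not separate results. Klf2, Klf3 and Foxp1 are in both the naive list and the KLF and FOXO list. Fosb and Dusp1 are in both the early response list and the SIK, CRTC and CREB list. KLF and FOXO genes had 7 of 9 higher (4 with the block, 5 without the vehicle mouse 4), early response genes such as Fos (1.27, SE 0.26) and Junb (1.09, SE 0.29) had 11 of 18 higher (5 with the block, 6 without the vehicle mouse 4, of 20 tested), and the SIK, CRTC and CREB list had 7 of 15 higher (4 with the block, 5 of 17 without the vehicle mouse 4), among them Sik1 (1.81, SE 0.50) and Crtc3 (1.76, SE 0.49). Costimulatory receptors had 6 of 9 lower (4 with the block and 4 without the vehicle mouse 4): Tnfrsf4, the receptor OX40 (-4.50, SE 0.68), Cd226 (-3.46, SE 0.70), Cd2 (-2.05, SE 0.36), Tnfrsf18 (-1.70, SE 0.36), Cd27 and Slamf6. Tnfrsf4 and Tnfrsf18 are also abundant in regulatory T cells, and so is Ikzf2 (-5.21, SE 0.72). Type I interferon-induced genes had 4 of 9 lower: Ifi209, Mndal, Ifi203 and Slfn2. With the block 3 were lower, and without the vehicle mouse 2 it was 2, where 645 of all 1906 genes were called in either direction. Vps37b was 3.101 higher on the log2 scale (SE 0.34, edgeR adjusted p = 1.26e-08).

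**Figure D5:**
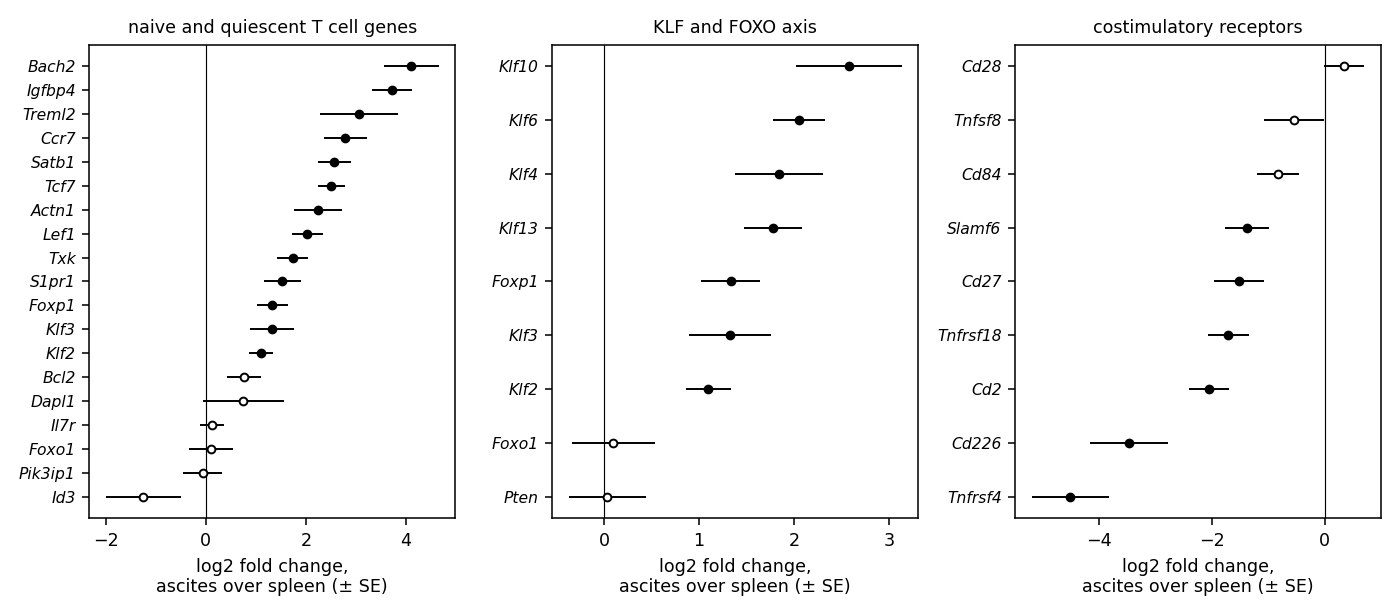
Ascites over spleen in CD4 T cells of vehicle mice. Points give the log2 difference with lines of ± 1 SE from the fit of 4 tissue and arm groups (2 ascites and 3 spleen vehicle mice), without the mouse block. Filled points have an edgeR adjusted p below 0.05 in that fit, and 1 naive gene is not drawn. Tcf7 (2.50), Lef1 (2.03) and Ccr7 (2.79) are higher in ascites, Tnfrsf4 (-4.50) and Cd226 (-3.46) lower, and Il7r (0.13) is near 0; tissue and library cannot be told apart.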

How the data were processed

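UMI counts per gene and cell, and counts per hashtag and cell, were deposited by the authors as filtered matrices of 2 droplet libraries of RNA (10x Genomics 3′ v3.1, per the labels) and their hashtag libraries. Cell Ranger 6.1.1 and mm10 are named in the submitters' processing notes. Cells were kept with at least 200 genes, 500 UMIs, at most 10% mitochondrial UMIs, and a top hashtag holding at least 80% of at least 20 hashtag UMIs, which also leaves out most doublets between mice; doublets within a mouse were not called. Of 13688 ascites barcodes 11112 passed the cell filters and 6419 had a hashtag.

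Members' counts were summed per mouse, normalised by TMM, filtered with filterByExpr and tested with edgeR 4.0.16 (robust quasi-likelihood, R 4.3.3; limma 3.58.1 installed with it), with DESeq2 1.42.0 as an alternative. The p-values were adjusted by Benjamini-Hochberg over all genes tested, and the genes of the gate stayed in library sizes but left each table before adjustment. The threshold was 0.05. The planned minimum of 20 cells per mouse could not be fitted, so the minimum of 10 is reported after 3 minimums had been run. Samples of ascites and spleen with 1 arm and mouse number are of the same animal per the hashtag notes deposited by the authors, which is the pairing behind the mouse block. Shares were compared by exact permutation over mice, the replicates. CPM are the UMIs of a gene scaled to a total of 1000000 over a mouse's summed cells. The scripts were tested on simulated data. Named genes were the called ones, up to 4 per list, the 5 smallest p per direction in the other comparisons (3 where none passed), and a fixed set (Sik1, Sik2, Sik3, Crem, Nr4a1, Tcf7, Lef1, Ccr7, Cd44, Pdcd1, Ifng, Il7r, Klf2, Zfp36l2, Fkbp5; 1 further gene of this set is not reported here). The members and the 22 gene lists were chosen with earlier results of these data known.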

Additional observations from a re-analysis of the deposited data

Results flagged for a closer look

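In the reported fit S100a4 was the 1 result whose treatment difference in summed level differed between tissues by a test of the difference itself. In CD4 T cells the log2 difference of treated over vehicle was lower in ascites than in spleen, by a term of -2.36 (SE 0.43, edgeR adjusted p = 0.00823). The share of members with an S100a4 UMI was 36.0% in vehicle and 37.1% in treated mice, pooled. The call was lost without the vehicle mouse 1 (-1.53, adjusted p = 0.207) and with the stricter hashtag rule (-1.61, adjusted p = 0.0714), and with the mouse block 5 genes were called, S100a4 among them. The vehicle side of the mouse block rests on the vehicle mouse 1, the only vehicle mouse with both tissues in the fit. Among 40 groups of 4 mice checked, no mouse stood further from the others than the 95% critical value of Dixon's test, which chance passes in about 1 group in 20.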

How the results depend on the processing

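The number of genes called with treatment in ascites CD4 T cells, 1 as reported, was 10 with no filter on low counts, 9 with the stricter hashtag rule, 0 with DESeq2's Wald test, 3 without members above the 95th percentile of UMIs, 6 with no Rora or Il18r1 UMI, and 1 to 11 when a mouse was left out. In settings chosen after seeing the data it was 4 without members holding an innate-like or gamma delta gene, 1 with all 8 mice and no minimum, 4 with that and the replicate block, and 14 without both mice numbered 4. The difference between CD4 and CD8 cells went from 0 calls to 1 with no filter and 1 to 7 when a mouse was left out, and stayed 0 with no replicate block. Spleen calls went from 3 to 11 with no filter, 14 with the stricter hashtag rule and 3 to 12 when a mouse was left out. Ascites against spleen had 788 calls, 268 with the replicate block and 463 to 817 when a mouse was left out. The tissue difference of treatment went from 1 call to 6 with no filter, 5 with the replicate block and 0 to 13 when a mouse was left out. Without the vehicle mouse 1 or 4, ascites keeps 1 vehicle mouse, which is assumed to vary like the other samples.

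The difference in share of kept ascites cells, 2.20 percentage points, kept its sign in every alternative run and ran from 0.352 (without the treated mouse 4) to 3.27 when a mouse was left out. The difference in share of gated T cells, 1.02 percentage points, turned to -10.8 with no C1q UMI, -1.09 with no Rora or Il18r1 UMI and -0.97 without both mice numbered 4, and ran from -3.89 to 5.80 when a mouse was left out; the smallest exact permutation p among these and the other alternatives was 0.486. With the replicate block the permutation p was 0.25 for the share of kept cells and 0.875 for that of T cells. Across arms, same-number correlations ran from -0.0002 to 0.080 over 1251 genes, and those of unlike numbers from -0.044 to 0.031. With as few as 4 members in a mouse, these values cannot tell whether the mouse numbers pair the mice. The highest was that of the mice numbered 4. They also had the lowest median depth of all kept ascites cells in their arms, 5971 UMIs in vehicle and 4880 in treated mice. The minimum of 20 cells could not be fitted for any of the 5 gene comparisons of CD4 cells, and was not run for CD8 cells alone; 50 cells, 5% mitochondrial UMIs, no C1q UMI, 2 Cd4 UMIs and the replicate block at 10 cells could not be fitted for ascites treatment. Depth limits which genes could be tested: 1843 passed the filter over the 5 mice with 15 to 78 members, and 956 over all 8 mice with 4 to 78.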
